A study of Mus musculus with 22 samples.

Results

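A small set of mouse liver loci was held below its total RNA level in heavy polysomes before and after tunicamycin (Tm). The set holds 109 of 9383 loci with enough fragments (1.16%), out of 39897 loci in the deposited table. Members were chosen from the authors' group means: a mean of at least 50 scaled fragments over total and polysomal RNA at 0 h, 2 h and 4 h, a completed estimate, and a log2 ratio of polysomal over total RNA of -0.8 or lower at each time. The ratio was taken after adding 1 to each mean. The 9383 loci that met the first 2 conditions are called base loci here. Because the ratios chose the members, every ratio below is a description and carries no test.

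Total RNA and RNA from heavy polysomal fractions (more than 3 ribosomes) came from whole liver of C57BL/6 male mice, 5 weeks old, of which the experiment used 15. Tm was given intraperitoneally at 0.1 mg/kg at 8 am, and mice were culled at 10 am (2 h) and at 12 noon (4 h). The 0 h mice were culled at 9 am; the methods call them controls, whereas their labels list tunicamycin, so no dose was assigned to them. Time after injection and time of day therefore changed together and cannot be told apart. All mice were of the same strain, with no transgene or deletion given. Each time point has 3 listed total libraries, and polysomal RNA has 2 listed libraries at 0 h, 2 at 2 h and 3 at 4 h. The authors' polysomal means of 0 h and 2 h, which enter every ratio of these times, may also include a library that is not listed. Total libraries held 9788578 to 17283500 counted fragments and the polysomal 4 h libraries 12843966 to 13726378. Nothing in the labels ties a library to a mouse, so p-values measure the spread between these libraries. The 10 h libraries are in a second table with other locus numbers and could not be followed locus by locus. The loci carry identifiers only, with no gene name, position or sequence in the files used here, so liver marker genes could not be looked up and the role of a member is not given. In whole tissue, fewer cells of a type and less RNA per cell cannot be told apart.

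In a sucrose gradient, an mRNA sediments according to the number of ribosomes it carries, which depends on how often translation starts and on how many ribosomes its coding region can hold. Tm blocks N-linked glycosylation and stresses the endoplasmic reticulum. The kinase PERK then phosphorylates eIF2α, which lowers translation initiation on most mRNAs. RNAs that are kept in the nucleus, carry no open reading frame or carry only a short one are known to be scarce among heavy polysomes. Each library was scaled to its own depth, so a ratio places a locus relative to the other loci of that library, and a loss of polysomes shared by all mRNAs does not appear in it.

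Members had median ratios of -1.22 (0 h), -1.04 (2 h) and -1.18 (4 h), beside -0.04, 0.00 and 0.00 over all base loci. At single times, 689 base loci (7.34%) lay at or below the threshold at 0 h, 277 (2.95%) at 2 h and 481 (5.13%) at 4 h. The members made up 15.8% of the 0 h list, 39.4% of the 2 h list and 22.7% of the 4 h list. Loci under the threshold at 0 h and 2 h numbered 126, those at 0 h and 4 h 242, and those at 2 h and 4 h 229. Most members sat close to the threshold: 42 had a ratio of -1 or lower at every time, and 1 had a ratio of -2 or lower at every time. The lowest of the 3 ratios fell at 0 h for 57 members, at 2 h for 10 and at 4 h for 42.

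**Figure D1:**
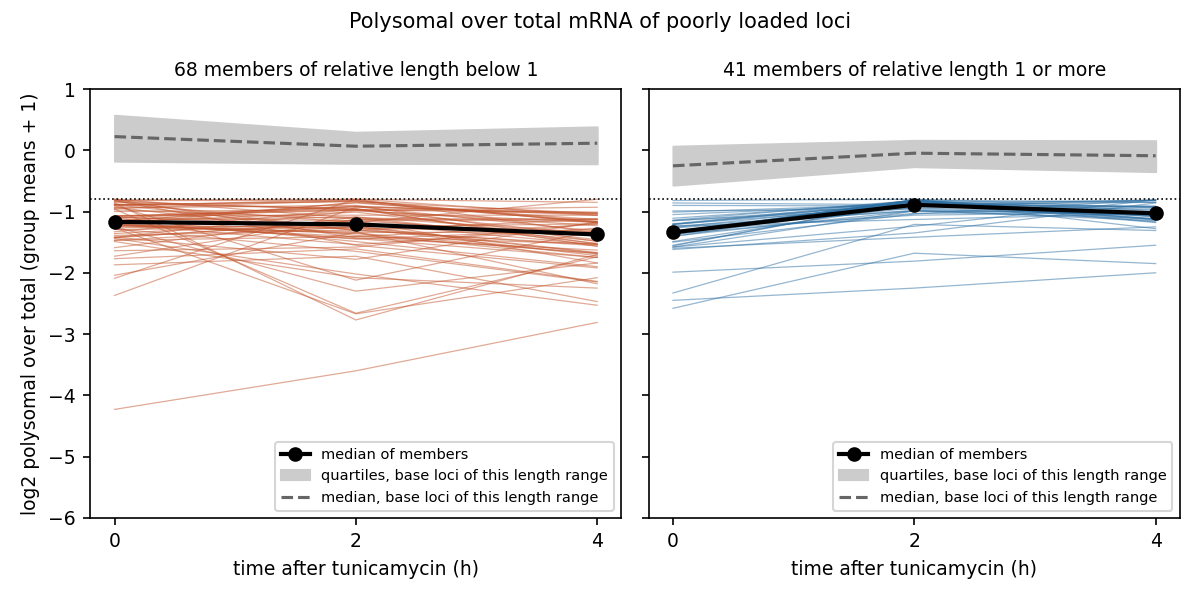
The log2 ratio of polysomal over total group means (vertical axis) is plotted at 0 h, 2 h and 4 h, with 1 line per member, for members of relative length below 1 (left, 68) and of 1 or more (right, 41). Black points are the members' medians, grey bands and dashed lines the quartiles and medians of the base loci in the same length range, and the dotted line the threshold of -0.8; the short members are lowest at 4 h (median -1.38) and the long members at 0 h (median -1.34).

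At the threshold of -0.8, members lay at both ends of the length range, although the excess at the long end did not hold at a lower threshold. Lengths were taken as fragments divided by FPKM (fragments per kilobase, scaled to library depth), relative to the median base locus of the same library, so they are relative lengths with no unit. Base loci were ordered by length and cut into 10 equal deciles. Of the 109 members, 43 were in the shortest decile of base loci and 13 in the next, together 51.4%. Another 28 (25.7%) were in the longest 2 deciles, 21 of them in the longest, and only 25 (22.9%) were in the 6 deciles between. The shortest decile thus gave 4.58% of its loci to the set, the longest 2.24%, and each of the other deciles between 0.213% and 1.39%. The median relative length of members was 0.513 (quartiles 0.209 and 2.00), beside 1.01 for base loci, but few members were near that median. Among the 42 members at -1 or lower, 69.0% were in the 2 shortest deciles and 9.52% in the 2 longest, which is below an even spread. Without replicate 2 of total RNA at 2 h, the longest 2 deciles held 18.5% and the median length was 0.368; without replicate 3 at 2 h these were 33.9% and 0.901. In lengths read from the polysomal 4 h libraries the median was 0.541.

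The balance of short and long loci differed between the lists at single times. At 0 h, 89 of the 689 loci at or below the threshold (12.9%) were in the 2 shortest deciles and 322 (46.7%) in the 2 longest. At 2 h, 173 of 277 (62.5%) were in the 2 shortest deciles and 39 (14.1%) in the 2 longest. At 4 h the values were 254 of 481 (52.8%) and 97 (20.2%). The median relative length of these lists was 1.74, 0.325 and 0.471. The members are the loci that all of these lists share. For comparison, 74 base loci had a ratio of 0.8 or higher at each time; 31 of them (41.9%) were in the 2 shortest deciles and 4 (5.41%) in the 2 longest.

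**Figure D2:**
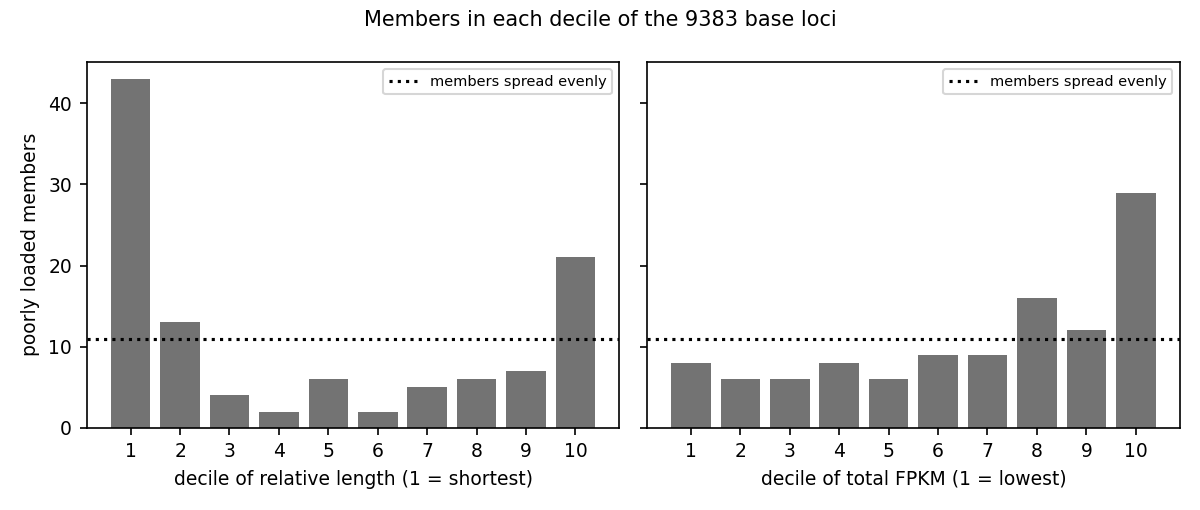
Bars count the poorly loaded members (vertical axis) in each decile of the base loci by relative length (left) and by mean FPKM in total RNA (right); the dotted line marks an even spread. The shortest and longest deciles hold 43 and 21 members, and the highest FPKM decile holds 29.

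The ratio of short and of long members took different courses over time, which was not tested. For the 68 members with a relative length below 1, a split chosen after the values were seen, the median ratio went from -1.17 at 0 h to -1.21 at 2 h and -1.38 at 4 h. At 2 h these members had no common direction, with 36 higher and 32 lower than at 0 h and a median difference of 0.01. The ratio was lower at 4 h than at 0 h in 47 of these 68, with a median difference of -0.29. For the 41 long members the medians were -1.34, -0.89 and -1.03 in the same order. Their ratio was higher at 2 h than at 0 h in 39 of 41 (median difference 0.34) and higher at 4 h than at 0 h in 38 of 41 (median difference 0.27). With each of 12 libraries left out in turn, the median difference from 0 h to 4 h ranged from -0.32 to -0.21 for short members and from 0.21 to 0.33 for long members. The polysomal mean of 0 h, which enters every such difference, was the same in all 12 settings. These ranges therefore do not cover the spread of polysomal RNA at 0 h. The lowest of a member's 3 ratios was at 4 h in 39 short members and at 0 h in 37 long members.

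Differences by length were also present across the base loci, where short loci were lower at 2 h already. Base loci of relative length below 1 had a median difference of -0.20 from 0 h to 2 h and -0.13 from 0 h to 4 h, and longer base loci had 0.20 and 0.16. In the shortest decile of base loci the median ratio went from 0.44 at 0 h to -0.14 at 2 h and -0.11 at 4 h. The 43 members within that decile had median ratios of -1.17, -1.31 and -1.56. Their median difference from 0 h to 4 h was -0.41, beside -0.56 for the whole decile. Members had to lie under the threshold at 0 h already, so the room for their differences was set in part by the rule, and the differences of members and base loci were not tested against each other.

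**Figure D3:**
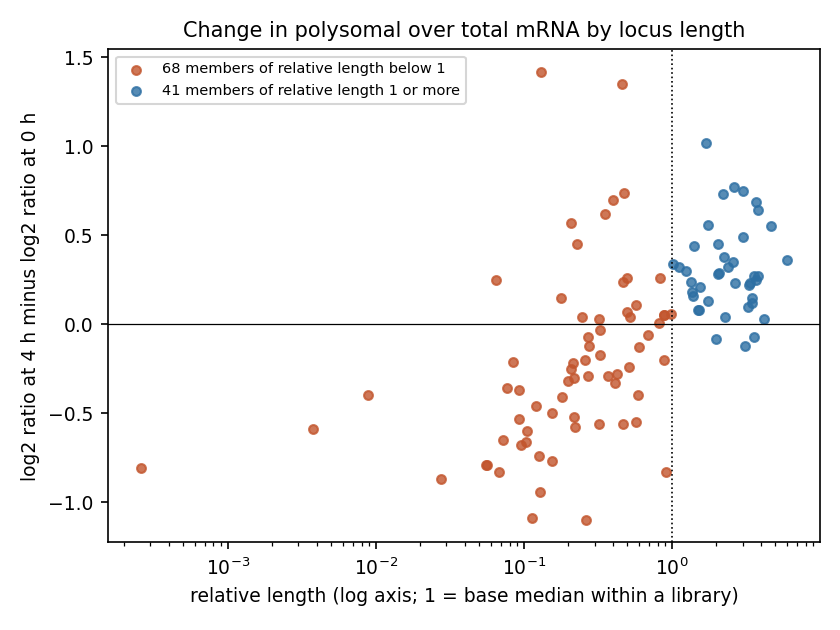
Each point is a poorly loaded member, with its relative length on a log horizontal axis and its log2 ratio at 4 h minus that at 0 h on the vertical axis. Of the 68 short members 47 lie below 0, and of the 41 long members 38 lie above 0.

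XLOC_000336, a short locus (relative length 0.13), had the lowest ratios: -4.23 at 0 h, -3.60 at 2 h and -2.81 at 4 h. Its scaled fragments (fragments divided by a library size factor) in total RNA were 159, 166 and 46.1 at 0 h, 221, 209 and 113 at 2 h, and 122, 129 and 52.8 at 4 h. In polysomal RNA the group mean was 5.67 at 0 h, then 14.0 at 2 h, and single 4 h libraries had 19.1, 5.10 and 16.7. The polysomal libraries at 4 h thus lay below all total libraries, on 26, 6 and 23 fragments, so counting error alone is large for this locus. Of all members it also had the largest increase in the ratio from 0 h to 4 h, 1.42 on the log2 scale.

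XLOC_016848 was the member of next lowest mean ratio and is long (relative length 2.06). Total RNA held 2110, 1060 and 1780 scaled fragments at 0 h, 1920, 746 and 2930 at 2 h, and 848, 1470 and 1360 at 4 h. The polysomal mean was 302 at 0 h, then 392 at 2 h, with 353, 326 and 239 in single libraries of 4 h. The total libraries spread widely at each time and overlapped between times, whereas the polysomal values stayed below all of them. The resulting ratios were -2.45, -2.25 and -2.0, or 5.45-fold, 4.74-fold and 4-fold less in polysomal than in total RNA.

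XLOC_009757, another long member (2.21), had ratios of -2.58, -1.68 and -1.85. Its total RNA was 264, 235 and 177 scaled fragments at 0 h and 237, 217 and 148 at 4 h, and its polysomal RNA had a mean of 36.8 at 0 h and 57.3, 51.9 and 55.1 at 4 h. Polysomal and total libraries did not overlap at 4 h, and the total libraries of 0 h and 4 h did.

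Among short members, the ratio was lower by the most at 4 h in XLOC_010401 and XLOC_003080. XLOC_010401 (relative length 0.264) was among the more abundant members. Its total RNA was nearly level, with 5710, 5690 and 6800 scaled fragments at 0 h, 5170, 5610 and 5990 at 2 h, and 5880, 6200 and 6970 at 4 h. Its polysomal means were 3430 at 0 h, then 1920 at 2 h, and the 4 h libraries had 1710, 1800 and 1530. The ratio was -0.82 at 0 h, close to the threshold, and -1.55 and -1.92 at 2 h and 4 h. XLOC_003080 (0.114) had ratios of -1.44, -2.02 and -2.53. Its polysomal mean was 456 at 0 h and 264 at 2 h, with 192, 230 and 183 in the 4 h libraries, while total RNA held 1180, 1140 and 1410 at 0 h and 1040, 1160 and 1330 at 4 h. In both loci the total libraries of 0 h and 4 h overlapped, and the 4 h polysomal libraries lay well below them.

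The longest members showed the opposite order. XLOC_011463 (relative length 6.03) had ratios of -1.37, -1.03 and -1.01, and XLOC_036363 (4.67) had -1.55, -0.82 and -1.0. For XLOC_036363, total RNA was 177, 168 and 174 scaled fragments at 0 h and 198, 165 and 147 at 4 h. Polysomal RNA had means of 58.4 at 0 h and 89.5 at 2 h, and 93.3, 84.2 and 75.4 in the 4 h libraries. Its 4 h polysomal libraries were all above the 0 h polysomal mean and all below the total libraries.

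The 2 members with the most fragments, XLOC_006769 and XLOC_000324, named after their values were seen, were also long. XLOC_006769 (2.65) had 76200, 59100 and 55700 scaled fragments in total RNA at 0 h and 55300, 45900 and 49100 at 4 h. Its polysomal means were 24900 at 0 h and 33400 at 2 h, with 25800, 20800 and 22200 at 4 h. Its ratios were -1.35, -0.81 and -1.13, so the 2 h value was just under the threshold. XLOC_000324 (2.41) had ratios of -1.41, -0.82 and -1.09. Both therefore followed the order of the long members.

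**Figure D4:**
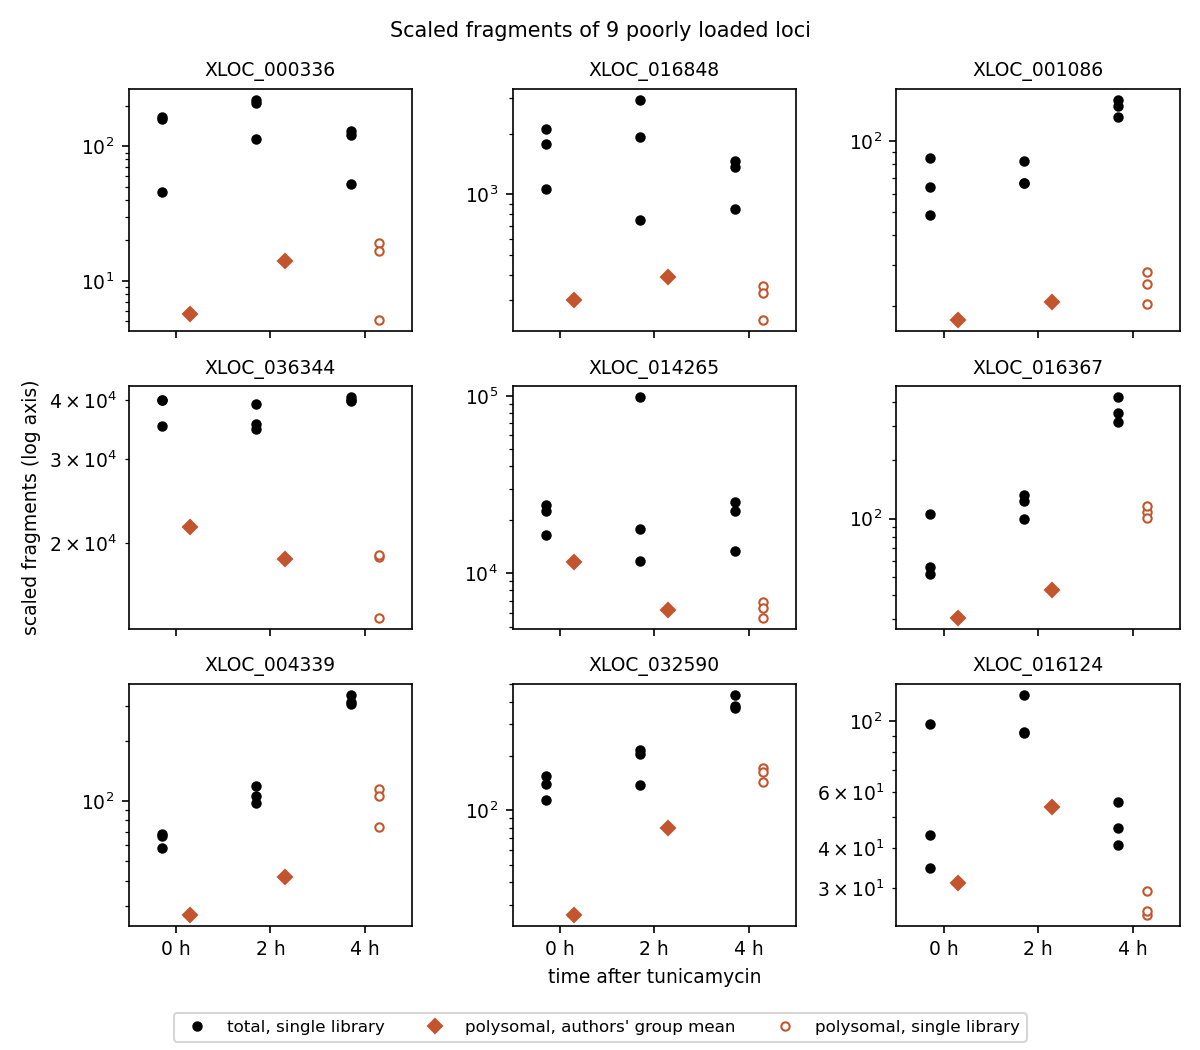
Scaled fragments (log vertical axes) of 9 members are plotted at 0 h, 2 h and 4 h. Black points are single total libraries and open points single polysomal 4 h libraries. Diamonds are the authors' polysomal group means at 0 h and 2 h, whose single libraries were not used. All polysomal 4 h points lie below the total points of 4 h, and 1 total 2 h library of XLOC_014265 stands at 98200.

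The median FPKM of members over the 9 total libraries was 22.8 (quartiles 7.03 and 84.0), beside 9.96 for base loci. It depended on the minimum mean: at 10 it was 6.84 beside 6.29 for the base loci of that setting, and at 200 it was 55.1 beside 18.8. Total RNA entered both the minimum mean and the ratio, so these levels are in part fixed by the choice of members. In the highest decile of FPKM there were 29 members (26.6%), of which 26 were short and 3 long. Short members had a median of 43.2 FPKM and long members 5.24; FPKM divides by length, and base loci of relative length below 1 likewise had a higher median (17.9) than longer ones (5.64). By scaled fragments, which are not divided by length, members were found in every decile, with a median of 248 beside 286. Each decile held 5 to 15 members, with 15 in the lowest, 14 in the highest and 5 in the decile below it. These means include polysomal RNA, which the rule holds below total RNA.

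The highest FPKM belonged to the shortest members. XLOC_016245 had a mean of 123000 FPKM and XLOC_001560 81300, at relative lengths of 0.000258 and 0.00374. In scaled fragments XLOC_016245 had only 695, 1100 and 760 in total RNA at 0 h, and its FPKM comes from the division by a minute effective length. The same holds for each of the 3 members with a relative length under 0.01, so their FPKM says little about abundance. XLOC_016245 had ratios of -1.27, -2.67 and -2.08, with polysomal means of 352 and 187 at 0 h and 2 h and 159, 236 and 211 in the 4 h libraries. XLOC_001560 had -1.25, -2.30 and -1.84. Both had their lowest ratio at 2 h, an order seen in only 10 members.

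XLOC_036344 (relative length 0.593, 2150 FPKM) was the most counted of the short members. It had 40100, 35300 and 40000 scaled fragments in total RNA at 0 h, 35700, 39300 and 34800 at 2 h, and 40100, 40600 and 39800 at 4 h. Its polysomal means were 21600 and 18500 at 0 h and 2 h, and its 4 h libraries had 18700, 18800 and 13900. The total libraries of 0 h overlapped those of both later times, whereas those of 2 h lay below those of 4 h. The ratio was -0.83, -0.98 and -1.23.

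XLOC_014265 and XLOC_027734 had a 2 h value that rested largely on replicate 1 of total RNA. XLOC_014265 had 98200, 11700 and 17700 scaled fragments in the total libraries at 2 h, beside 24200, 22500 and 16400 at 0 h and 22500, 25200 and 13300 at 4 h. XLOC_027734 had 4680, 528 and 895 at 2 h, beside 1270, 1090 and 897 at 0 h. Replicate 1 was thus the highest 2 h library for both. Without it, the 2 h ratio was -1.24 in place of -2.77 for XLOC_014265 and -1.15 in place of -2.66 for XLOC_027734, and both loci were still under the threshold. Other members depended on single 2 h libraries for their place in the set: 102 of the 109 were still members without replicate 1 at 2 h, 84 without replicate 2 and 101 without replicate 3.

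Together the members took 2.47% ± 0.21 (SD, n = 3) of all counted fragments in total RNA at 0 h, 2.51% ± 0.584 at 2 h and 2.43% ± 0.15 at 4 h. In polysomal RNA at 4 h they took 1.04% ± 0.09 (SD, n = 3). The single total libraries held 2.68%, 2.48% and 2.26% at 0 h, 3.17%, 2.32% and 2.05% at 2 h, and 2.58%, 2.42% and 2.28% at 4 h. The polysomal libraries held 1.13%, 0.95% and 1.04%. The total libraries overlapped between all times, and replicate 1 at 2 h, the library with the high XLOC_014265, was the highest. Without the 4 most counted members (XLOC_006769, XLOC_000324, XLOC_036344 and XLOC_014265) that library held 0.959%, within the range of 0.846% to 0.961% of the 9 total libraries. These 4 loci thus supplied most of the set's fragments. In the authors' group means, members made up 1.19% (0 h), 1.30% (2 h) and 1.09% (4 h) of polysomal RNA.

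Single polysomal libraries were set beside single total libraries only at 4 h. All 109 members had their 3 polysomal libraries below their 3 total libraries, as did 25.6% of base loci; the rule used the means of these libraries, so this was largely set by it. In pairs of total and polysomal libraries of the same number, the median member ratio was -1.16, -1.21 and -1.35, and that of base loci -0.05, 0.01 and 0.02. The ratio was at or below -0.8 in all 3 pairs for 83 members (275 of the 9383 base loci), and in all 9 pairings of a total with a polysomal library for 66. The typical SD of a member's ratio over the 3 pairs was 0.23, beside 0.18 for base loci. For polysomal RNA of 0 h and 2 h no such spread is given, because its read groups outnumber the listed libraries and were not used.

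The total mRNA of the members was then compared between time points, which asks whether poorly loaded loci also changed in abundance after Tm. The quasi-likelihood test of edgeR was run over 12606 loci in 1 model of the 9 total libraries. A call needed both an adjusted p (Benjamini-Hochberg) below 0.05 and a 2-fold or larger difference. Of the members 108 were tested, leaving out XLOC_017770, for which an estimate was incomplete in 1 library. At 2 h versus 0 h, none was called, where 0.397% of all loci tested were; 7 members had an unadjusted p under 0.05 (11.8% of all loci tested), and DESeq2 called 1 (0.926%, beside 0.706% of all loci). At 4 h versus 0 h, 8 members were called (7.41%), where 8.55% of all loci tested were. Of these 7 rose (6.48% of members, 5.08% of all loci tested) and 1 fell (0.926% and 3.47%). With upper-quartile scaling 4 were called higher and 2 lower (3.70% and 1.85%, beside 3.96% and 4.91% of all loci). When loci with an incomplete estimate were kept, XLOC_017770 was the second member called lower (1.83% of 109, beside 3.44% of all loci). With no minimum fold change 31 members passed, 19 higher and 12 lower, or 28.7% where 30.5% of all loci tested did (17.8% higher and 12.7% lower). At 4 h versus 2 h, 3 members rose and 1 fell, 3.70% beside 6.81% of all loci tested (3.63% higher and 3.17% lower). With no minimum fold change 26 members passed, 24.1% where 26.2% of all loci tested did. Over base loci, from which the members were drawn, the share called at the 2-fold minimum was 7.37% at 4 h versus 0 h. It was 0.469% at 2 h versus 0 h and 5.63% at 4 h versus 2 h. The members' shares rest on few loci and were not tested against those of other loci. Of the 42 loci at or below -1, 5 (11.9%) were called at 4 h versus 0 h. The number was 3 (7.14%) at 4 h versus 2 h and 0 at 2 h versus 0 h. These counts are small and were not tested against all loci.

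The median log2 change of members was 0.00 at 2 h and -0.03 at 4 h versus 0 h, beside 0.00 and -0.02 for all loci tested. The quartiles of the 4 h change were -0.27 and 0.30 for members. Short and long members had medians of -0.05 and 0.01. The 0 h and 4 h libraries did not overlap in 45 members (41.7%), beside 45.4% of all loci tested. The 74 richly loaded loci had a median change of -0.42 at 4 h. The ratio that chose both sets has total RNA as its denominator, so sets chosen high or low in it are not independent of total RNA at that time.

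XLOC_016367 had the largest rise. This short locus (relative length 0.468) had 56.3, 51.6 and 106 scaled fragments in total RNA at 0 h, 132, 99.3 and 123 at 2 h, and 318, 353 and 425 at 4 h. Its relative length ranged from 0.00833 to 0.509 between libraries, and its FPKM at 0 h was 3.75, 3.68 and 425. Its length and its mean FPKM (70.4) are therefore uncertain. The 4 h libraries lay above all others, for a log2 change of 2.39 ± 0.24 (SE; edgeR adjusted p = 2.14e-05). Its polysomal RNA was also higher at later times, with means of 30.7 and 42.7 at 0 h and 2 h and 108, 116 and 101 in the 4 h libraries. The ratio was nevertheless lower, at -1.19, -1.44 and -1.75.

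XLOC_004339 (0.121) had 68.7, 58.2 and 67.1 scaled fragments at 0 h, 119, 98.2 and 106 at 2 h, and 306, 341 and 312 at 4 h. None of the 3 groups overlapped. It rose by 2.31 ± 0.13 on the log2 scale at 4 h (edgeR adjusted p = 4.4e-07). It was also the 1 member that passed the adjusted p at 2 h, as 0.785% of all loci tested did at any fold and 0.389% below the 2-fold minimum. Its change then was below that minimum, at 0.74 ± 0.14 (edgeR adjusted p = 0.0345). Its ratio was -1.23, -1.35 and -1.69, so it too was lower as total RNA rose.

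XLOC_032590 was 1 of 2 long members that rose. It had 155, 139 and 114 scaled fragments at 0 h, 217, 206 and 138 at 2 h, and 438, 370 and 380 at 4 h, a log2 change of 1.53 ± 0.17 (edgeR adjusted p = 4.2e-05). Unlike the short loci above, its ratio was higher at later times, from -2.33 at 0 h to -1.21 and -1.31. The polysomal mean was 26.3 at 0 h, then 80.1 at 2 h, and the 4 h libraries had 172, 164 and 143.

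XLOC_014931 rose by 1.25 ± 0.19 (edgeR adjusted p = 0.000383), from 77.3, 65.5 and 118 scaled fragments at 0 h to 204, 198 and 212 at 4 h. XLOC_001086, the fourth lowest in mean ratio, rose by 1.08 ± 0.19 (edgeR adjusted p = 0.00122), from 48.7, 64.3 and 84.9 to 127, 141 and 150. Both are short, and neither overlapped between 0 h and 4 h. XLOC_001086 had ratios of -1.87, -1.73 and -2.47. Its polysomal RNA was 17.4 and 20.9 in the means of 0 h and 2 h and 27.9, 24.7 and 20.3 in the 4 h libraries. XLOC_018066 and XLOC_005391, the second a long locus, rose by 1.11 and 1.05. Without replicate 1 at 0 h, the change was 0.88 for XLOC_001086 and 0.90 for XLOC_005391, both under the 2-fold minimum. XLOC_005391 was also just under it without replicate 3 at 4 h, and XLOC_018066 without replicate 2 at 4 h. With upper-quartile scaling XLOC_001086, XLOC_005391 and XLOC_018066 were at 0.96, 0.92 and 0.99, all under the minimum.

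XLOC_002686 was the 1 member of the 108 tested that was called lower at 4 h versus 0 h, by 1.32 on the log2 scale (SE 0.32; edgeR adjusted p = 0.00829). It had 82.1, 194 and 161 scaled fragments at 0 h, 52.6, 55.6 and 65.6 at 2 h, and 53.0, 85.9 and 37.3 at 4 h, so the 0 h and 4 h libraries overlapped. Its 2 h libraries all lay below those of 0 h, with a log2 change of -1.36 that was not called (edgeR adjusted p = 0.0923). DESeq2, the fit with no filter on low counts and the fit without replicate 1 at 0 h did call it lower at 2 h. At 4 h versus 0 h, XLOC_034244 was also called lower without replicate 3 at 0 h, at -1.04 on the log2 scale, as it was with upper-quartile scaling. XLOC_016124, a long locus, fell between 2 h and 4 h, from 92.6, 121 and 91.6 to 46.2, 55.6 and 41.0. The log2 change was -1.08 ± 0.32 (edgeR adjusted p = 0.0279), and the call was lost without replicate 2 or 3 at 2 h or without replicate 1 or 3 at 4 h. At 0 h its libraries had 43.9, 97.9 and 34.6 and overlapped both later groups.

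**Figure D5:**
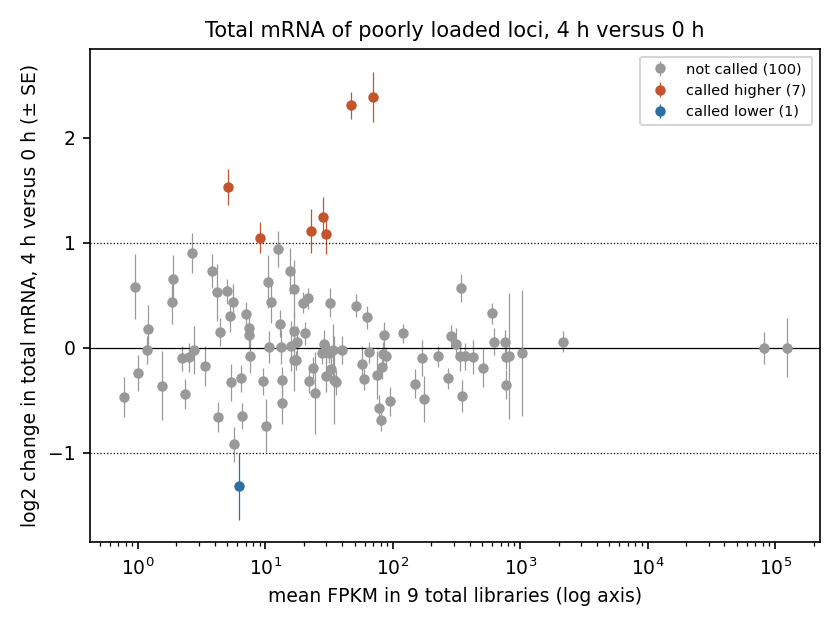
The log2 change in total mRNA at 4 h versus 0 h with its standard error (vertical axis) is plotted against mean FPKM in the 9 total libraries (log horizontal axis) for the 108 members tested; dotted lines mark 2-fold changes. The 7 members called higher lie from 1.05 to 2.39, the 1 called lower at -1.32, and the 100 others scatter around 0.

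XLOC_017770 was left out of the main test, because Cuffdiff gave no completed estimate for it in replicate 2 at 2 h. It had 118, 175 and 124 scaled fragments in total RNA at 0 h and 49.6, 58.1 and 63.7 at 4 h, which did not overlap. In the fit that kept such loci it was called lower at 4 h than at 0 h, with a log2 change of -1.30 (SE 0.185; edgeR adjusted p = 0.000283), and lower than at 2 h, with -1.25 (SE 0.188; edgeR adjusted p = 0.000635), the second with the incomplete estimate among the 2 h values. Its polysomal mean was 26.2 at 0 h, then 71.1 at 2 h, and its 4 h libraries had 31.6, 21.3 and 30.4. Its ratio was -2.37 (0 h), -0.93 (2 h) and -1.02 (4 h), the second largest increase among members.

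The threshold cut through a continuous range. The members just inside it were XLOC_024527, XLOC_003220 and XLOC_026685, whose highest ratios were -0.8009, -0.8014 and -0.8017. The base loci just outside were XLOC_028291, XLOC_015770 and XLOC_014838, at -0.7997, -0.7992 and -0.7984. XLOC_015770 had ratios of -1.98 at 2 h and -1.39 at 4 h and missed only at 0 h. With each of the 12 libraries left out in turn, 61 of the 109 members were members every time, and 157 loci were members at least once or with all libraries. The polysomal means of 0 h and 2 h were held fixed in these settings, so the counts do not cover their spread. The ratio nearest the threshold was at 2 h for 54 members and at 0 h for 32.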

How the data were processed

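Total liver RNA and heavy polysomal RNA were sequenced as stranded poly(A) libraries. The authors aligned single-end reads with TopHat2 2.0.13 to a GRCm38 transcriptome index and ran Cuffdiff of Cufflinks 2.2.1 with fragment bias and multi-read corrections. The authors deposited, per locus and library, raw fragment counts, fragments scaled by library size factors (a signal), and FPKM, and for each group a mean of the scaled signal. Columns of the authors' comparisons (fold changes and p-values) were not used. In the first table, 69 of 81 read groups and 21 of 27 group means were not used, and in the second 10 of 12 group means. Polysomal RNA at 0 h and 2 h has 3 read groups but 2 listed libraries, so only the authors' means were used. In total RNA and in polysomal RNA at 4 h, the authors' means matched the means of the read groups to within 0.667 scaled fragments. The polysomal means of 0 h and 2 h may therefore include a read group with no listed library, which was not checked.

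Ratios were log2(polysomal + 1) - log2(total + 1) of group means. Total counts of 9 libraries were fitted with edgeR 4.0.16 in R 4.3.3 (TMM, filterByExpr, quasi-likelihood test, Benjamini-Hochberg over 12606 loci); 54 loci without a completed estimate were left out. These steps were tested on simulated data. DESeq2 1.42.0, upper-quartile scaling, other filters, thresholds and pseudocounts, a fit blocked on the replicate number, and leaving out each library were the alternatives. At 4 h, same-numbered total and polysomal libraries deviated together from their group means (r across loci 0.46 to 0.487, other numbers -0.322 to -0.118), so they were paired. Read groups 0 to 2 are called replicates 1 to 3.

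The named loci are the 5 members of lowest mean ratio, the 5 of highest total FPKM, the largest called changes in total mRNA without overlap (up to 4 in each direction at 4 h versus 0 h and up to 2 in the other comparisons; fewer met this, with no fall at 4 h versus 0 h and 1 at 4 h versus 2 h), the 2 longest and 2 shortest, the 3 nearest the threshold on each side, and the 2 whose ratio moved most in each direction. XLOC_002686, XLOC_005391, XLOC_018066, XLOC_006769, XLOC_000324 and XLOC_034244 were named after their values were seen. The members and lists were chosen with earlier results of these data known.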

Additional observations from a re-analysis of the deposited data

Results flagged for a closer look

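Of the 108 members tested, 4 (3.70%) differed in total mRNA between 2 h and 4 h after Tm, where 6.81% of all loci tested did, so their changes at these times, taken against the same 0 h libraries, were unequal by a test of the difference itself (edgeR's quasi-likelihood test, called at an adjusted p under 0.05 and 2-fold). The log2 change from 2 h to 4 h was 1.64 ± 0.23 (SE) for XLOC_016367 (adjusted p = 0.00038), 1.58 ± 0.12 for XLOC_004339 (adjusted p = 1.1e-05) and 1.09 ± 0.17 for XLOC_032590 (adjusted p = 0.000675). It was -1.08 ± 0.32 for XLOC_016124 (adjusted p = 0.0279). XLOC_032590 was under the 2-fold minimum without replicate 3 at 2 h, at 0.91, and with upper-quartile scaling, at 0.98, and XLOC_016124 missed the adjusted p in 4 of the 9 settings that left out a library.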

How the results depend on the processing

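The number of members was 280 at a threshold of -0.6, 42 at -1, 181 at a minimum mean of 10, 64 at a minimum mean of 200, and 92 to 121 with a library left out. The median relative length was 1.11 at -0.6, 0.251 at -1, 0.467 with a pseudocount of 8, 0.591 and 0.599 at minimum means of 10 and 200, and 0.368 to 0.901 with a library left out, so it is a poor summary of a set with members at both ends of the range. The share of members in the 2 shortest deciles, an outcome added after the data were seen, was 34.3% at -0.6, 69.0% at -1, 54.4% with a pseudocount of 8, 47.5% and 45.3% at minimum means of 10 and 200, and 40.5% to 63.0% with a library left out. In the 2 longest deciles it was 31.1%, 9.52%, 24.4%, 21.0%, 29.7% and 18.5% to 33.9%, and 24.3% with TMM scaling. The excess at the long end was thus lost at -1 and without replicate 2 of total RNA at 2 h, while the excess at the short end held in all of these settings. The median total FPKM was 15.5 at -0.6, 31.9 at -1, 30 with a pseudocount of 8, 6.84 and 55.1 at minimum means of 10 and 200, and 17.5 to 31.3 with a library left out. The share of total RNA fragments was 4.84% at -0.6, 0.283% at -1, 6.99% as a share of FPKM, and 2.38% to 2.52% with a library left out.

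At 2 h versus 0 h, 2 members were called with no filter on low counts (1.85%, beside 0.6% of all loci in that setting), 1 with DESeq2 (0.926% beside 0.706%), 1 with no minimum fold change (0.926% beside 0.785%), and 0 to 1 with a library left out (at most 0.926%, beside 0.265% to 0.482%). At 4 h versus 0 h, 31 were called with no minimum fold change (30.5% of all loci tested were), 20 of 279 loci at -0.6 (7.17%) and 5 of 42 loci at -1 (11.9%), where 8.55% of all loci tested were called, and 7 to 9 members with a library left out (6.48% to 8.33%, beside 7.58% to 8.76%). Of these, 1 was lower, or 2 without replicate 3 at 0 h. With incomplete estimates kept, 9 of 109 were called, 7 higher and 2 lower (8.26% beside 8.54%), and 5 at 4 h versus 2 h, 3 higher and 2 lower (4.59% beside 6.80%); XLOC_017770 was the member added in both. At 4 h versus 2 h, 26 were called with no minimum fold change (24.1%, where 26.2% of all loci tested were), 15 of 279 at -0.6 and 3 of 42 at -1 (5.38% and 7.14%, where 6.81% were), and 3 to 5 with a library left out (2.78% to 4.63%, beside 5.46% to 7.31%). Upper-quartile scaling moved the median change of all loci tested at 4 h versus 0 h to -0.15 and that of members to -0.16, and called 6 members, 4 higher and 2 lower (3.70% and 1.85%, beside 3.96% and 4.91% of all loci); XLOC_001086, XLOC_005391 and XLOC_018066 were then under 2-fold. At 4 h versus 2 h it called 2 higher and 2 lower (1.85% each, beside 2.80% and 4.62%) in place of 3 and 1, with XLOC_032590 at 0.98. The median change at 4 h was 0.00 among loci at -1, and -0.06 to -0.01 with a library left out. The median change at 2 h was -0.02 to 0.03 with a library left out. The fit with a replicate block by read group number called 0, 8 and 4 members, as without it. These were for 2 h versus 0 h, 4 h versus 0 h and 4 h versus 2 h. At 4 h versus 0 h, 34 members passed the adjusted p below 2-fold (31.5%, beside 23.7% of all loci), in place of 23 (21.3% beside 21.9%). At 4 h versus 2 h, 28 did (25.9% beside 21.1%), in place of 22 (20.4% beside 19.4%). Same-numbered total libraries correlated from -0.0257 to 0.349 across time points (other numbers -0.289 to 0.208). Whether they share more than a number is not given. The cause of these shifts was not tested. Spread was not taken for polysomal RNA at 0 h and 2 h, whose read groups were not used one by one. Their group means were the same in every setting that left out a library. Loci near the minimum mean rest on few polysomal fragments.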

Other observations

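At 10 h, in the second table, 326 of 10461 loci with a mean of at least 50 (3.12%) had a ratio of -0.8 or lower. These loci could not be matched to the members. The median SD of log2 CPM was 0.18 for members and 0.14 for base loci at 0 h, 0.23 and 0.19 at 2 h, and 0.13 in both at 4 h. Over the 109 members, Spearman's rho between relative length and the ratio was -0.223 (0 h), 0.497 (2 h) and 0.642 (4 h); over the base loci it was -0.469, -0.125 and -0.205. Members at all times share the same libraries, and lengths come from the total libraries that also enter the ratio. The rule kept only ratios of -0.8 or lower, so rho within the members is in part set by it. The rho of members was not tested against that of base loci.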
